A study of Mus musculus with 60 samples.

Results

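Apolipoproteins are the proteins that coat and steer the lipid particles of blood plasma, and in mammals the liver makes most of them. Apob is the large scaffold of very low density lipoprotein. Apoa1 and Apoa2 are the main proteins of high density lipoprotein (HDL), and the small exchangeable proteins Apoc1, Apoc2, Apoc3 and Apoe move between particles, where Apoc2 activates lipoprotein lipase, Apoc1 and Apoc3 slow lipid clearance and Apoe binds the receptors that take particles up. Apoa4 is made in intestine and, in mice, also in liver, Apoa5 is a liver protein that lowers plasma triglyceride, and Apoh (also named beta-2-glycoprotein I) binds charged phospholipids. The 10 genes Apoa1, Apoa2, Apoa4, Apoa5, Apob, Apoc1, Apoc2, Apoc3, Apoe and Apoh were taken by name, and all 10 were found among the 19355 gene symbols of hepatocytes and cultures and among the 17473 symbols of livers. Other apolipoproteins such as Apom were kept as a list for comparison.

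The study asked how IL6-expanded cells compare with primary hepatocytes, and which genes change in livers after 2/3 partial hepatectomy (PHX), by sequencing mRNA. The labels give wild type C57BL/6 for all groups, mice or cells from them, aged 8 to 10 weeks per the study's methods, with 3 samples in each group. The first set holds 33 samples in 11 groups: freshly isolated hepatocytes, the first culture in medium with IL6, EGF and HGF at day 3 and day 14, named IL6-iHPCs-D3 (P0) and IL6-iHPCs-D14 (P0), the passaged progenitor-like lines IL6-iHPCs-mouse-1 (P10), IL6-iHPCs-mouse-2 (P10), IL6-iHPCs-mouse-1 (P35) and IL6-iHPCs-clone-1 (P20), and the IL6-iMHs, hepatocyte-like cells obtained from each of these 4 lines in a maturation medium without IL6. Per the study's methods, the maturation medium held oncostatin M and a higher dose of dexamethasone, and left out EGF and HGF as well as IL6. P stands for passage, clone-1 grew from a single hepatocyte, which the study describes for its clones as taken from Albumin-Cre mice crossed to a R26R tdTomato reporter (the labels of clone-1 name neither allele), and mouse-1 at P10 and at P35 is the same mouse. The second set holds 18 livers in 6 groups, Normal liver and livers 6 h, 24 h, 3 days, 7 days and 14 days after PHX. The 3 samples of a culture group are described as technical repeats, and nothing states that the 3 livers of a time came from separate animals, so every p-value measures the spread between these samples only.

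Levels are FPKM, that is fragments per kilobase of gene model scaled to sequencing depth, and differences are on the scale of log2(FPKM + 1), on which changes of weakly expressed genes are understated. A gene was called where limma gave a Benjamini-Hochberg adjusted p under 0.05 over all genes tested (12328 in cultures, 11114 in livers) and the difference was at least 2-fold. All 10 genes passed the filter on low values in both sets. Reads on genes numbered 49.3 M to 88.9 M per culture sample and 52.1 M to 79.3 M per liver. The summed level of 12 hepatocyte markers was 86980 to 93311 FPKM in hepatocytes, 8330 to 30574 in passaged IL6-iHPCs and 72301 to 94794 in IL6-iMHs, and that of 8 biliary and progenitor markers was 4.09 to 4.41, 2983 to 11091 and 278 to 1566 FPKM in the same order. A sum weighs the most abundant markers most. Of the 12 hepatocyte markers, 6 were called higher on maturation in all 4 lines (1.95% of all genes). Against hepatocytes, 4 were called lower in the IL6-iMHs of all 4 lines, led by Asgr1 and Ttr, and 1, Krt18, higher. Of all genes 5.22% were lower and 12.3% higher in all 4. The hepatocytes also carried red blood cell RNA (5 markers, 107 to 124 FPKM, at most 1.03 in any culture). A label check went against a shared origin of the clone-1 pair, since 4 Y-linked genes summed to 33.9 to 38.7 FPKM in IL6-iHPCs-clone-1 (P20) and to 0 in IL6-iMHs-clone-1 (P20). They summed to 5.46 to 7.21 FPKM in hepatocytes, 70.5 to 81.4 at D3, 53.4 to 62.3 at D14 and at most 0.0157 in the other passaged cells. The mouse-1 and mouse-2 cells thus had next to no Y-linked RNA, unlike hepatocytes. In their comparisons with hepatocytes, a difference in the sex or origin of the cells cannot be told apart from culture. Because of the clone-1 pair, counts of the 10 genes over lines are given with and without clone-1. Counts over lines of the other gene lists include it. Among the livers PHX-D3 replicate 2 stood apart, with correlations of 0.902 and 0.882 with the other PHX-D3 livers against 0.985 between those, and the results that rest on it are given without it as well.

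The 10 genes sit at 5 places in the genome (mm10, which is GRCm38). Apoa1 (chr9:46228580-46230466, plus strand), Apoc3 (chr9:46232933-46235636, minus strand), Apoa4 (chr9:46240696-46243459, plus strand) and Apoa5 (chr9:46268633-46271919, plus strand) form a cluster of 43.34 kb, and Apoc2 (chr7:19671579-19677941), Apoc1 (chr7:19689481-19692660) and Apoe (chr7:19696109-19699188) lie with Apoc4 on the minus strand of a cluster of 27.61 kb. Apoa2 (chr1:171225054-171226379), Apob (chr12:7977648-8016835) and Apoh (chr11:108343354-108414396) stand alone on the plus strand. Exons of Apoh overlap Prkca on the opposite strand, Apoa4 and Apoa5 have antisense genes, and exons of Apoc2 are shared with a readthrough gene (Gm44805) that the tables do not list. Reads of such partners cannot be told apart here, and the values of Apoc2, Apoc4 and, to a lesser degree, Apoa4, Apoa5 and Apoh are uncertain for this reason.

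Promoter sequences are shown for Apoa1, Apoa2, Apoa5 and Apob. In the data below Apoa1 came back on maturation where Apoa2 and Apoa5 stayed low. Apob was called higher than in hepatocytes at D3, at D14 and in 3 of the 4 passaged IL6-iHPC lines. They are the 250 bases before the annotated start (RefSeq, GRCm38.p6), at chr9:46228380-46228629 for Apoa1, chr1:171224804-171225053 for Apoa2, chr9:46268383-46268632 for Apoa5 and chr12:7977427-7977676 for Apob, all on the plus strand, with capitals for letters that match a motif searched.
Apoa1: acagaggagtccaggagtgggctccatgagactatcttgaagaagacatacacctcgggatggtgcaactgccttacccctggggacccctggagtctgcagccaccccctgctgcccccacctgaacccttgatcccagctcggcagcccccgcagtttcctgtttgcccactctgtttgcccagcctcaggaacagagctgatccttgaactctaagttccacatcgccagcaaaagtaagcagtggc
Apoa2: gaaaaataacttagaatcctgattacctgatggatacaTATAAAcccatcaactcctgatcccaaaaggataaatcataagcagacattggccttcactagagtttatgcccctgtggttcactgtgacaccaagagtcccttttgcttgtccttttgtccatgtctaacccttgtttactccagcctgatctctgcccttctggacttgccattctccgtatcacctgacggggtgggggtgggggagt
Apoa5: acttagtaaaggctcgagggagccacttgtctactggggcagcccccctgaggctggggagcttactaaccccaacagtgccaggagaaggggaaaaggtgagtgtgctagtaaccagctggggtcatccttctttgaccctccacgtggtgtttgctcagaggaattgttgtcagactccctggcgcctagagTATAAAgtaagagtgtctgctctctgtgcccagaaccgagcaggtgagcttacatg
Apob: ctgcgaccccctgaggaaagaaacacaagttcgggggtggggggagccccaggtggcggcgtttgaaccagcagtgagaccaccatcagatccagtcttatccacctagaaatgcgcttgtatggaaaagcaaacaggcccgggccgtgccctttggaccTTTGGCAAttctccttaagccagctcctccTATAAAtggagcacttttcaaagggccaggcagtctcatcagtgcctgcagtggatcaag
The motifs were searched on both strands in windows of 300 bases, 250 before the start and 50 from it on. They were a TATA box (TATAAA, in 13.6% of all 32851 windows), C/EBP (TTGCNNAA, 10.8%), a STAT site (TTCNNNGAA, 8.30%), an HNF1 site (GTTAATNA, 2.54%), CRE (TGACGTCA, 1.79%) and HNF4 as AAAGGTCA (1.51%) or CAAAGTCCA (0.475%). Windows were found for 8 of the 10 genes, 12 windows in all. The Apoa1, Apoa4 and Apoh windows held no match. A second Apoa2 window, at another annotated start (chr1:171221314-171221613), held an HNF4 match on the other strand (TGACCTTT, from 238 bases before that start) and a C/EBP match on each strand (TTAAGCAA from 164 and TTGCTTAA from 140 bases before it). In the second Apoa5 window (chr9:46268358-46268657) the same TATA box begins 31 bases before the start. An Apoe window (chr7:19698572-19698871, minus strand) held overlapping TATA boxes on both strands, and the Apoc2 window (chr7:19677892-19678191, minus strand) an HNF1 match (GTTAATAA). The capitals mark a TATA box that begins 212 bases before the start of Apoa2, 56 before that of Apoa5 and 60 before that of Apob, and in Apob also a C/EBP match on the other strand (TTTGGCAA) that begins 90 bases before the start. A match is a description of letters and was not tested for binding.

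Hepatocytes expressed these genes at some of the highest levels of the transcriptome. Apoe measured 23564, 20671 and 19284 FPKM in the 3 hepatocyte samples and ranked 2 among all genes by group mean, Apoa1 (16705, 14728 and 15365 FPKM) ranked 3 and Apoa2 (10745, 9262 and 10320 FPKM) ranked 6. Apoc1 ranked 14, Apoc3 25 and Apoh 43. Apoa4 (23.0 to 25.4 FPKM), Apob (29.1 to 54.2 FPKM) and Apoc2 (1.63 to 2.10 FPKM) were much lower in the same samples, so the scaffold of very low density lipoprotein was not among the leading messages of this preparation. Together the 10 genes made up 9.78% ± 0.583 (SD, n = 3) of the summed FPKM of hepatocytes and 7.73% ± 0.604 (SD, n = 3) of that of Normal liver. The share fell to 0.277% ± 0.00836 at D3 and 0.141% ± 0.00299 in IL6-iHPCs-mouse-1 (P35), lay between 0.817% and 0.971% by group mean in the other IL6-iHPCs, and was 3.40% to 4.57% in the IL6-iMHs (SD, n = 3 in each). No culture sample reached the lowest hepatocyte sample (9.41%).

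**Figure D1:**
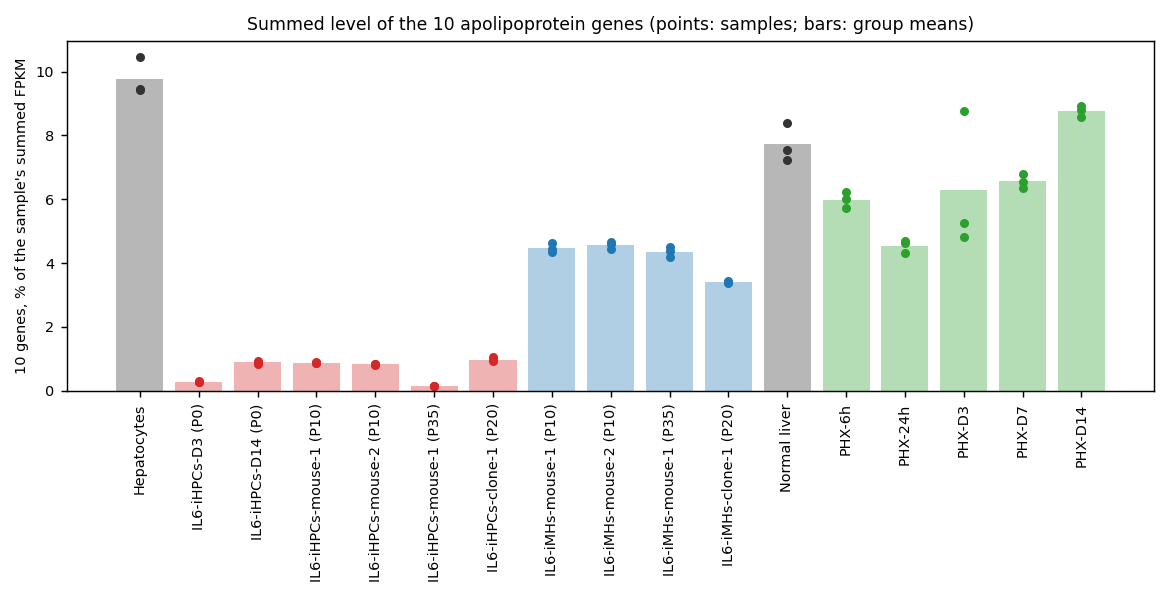
Summed level of the 10 apolipoprotein genes in each sample (points) and group (bars, mean of 3 samples), as percent of the sample's summed FPKM, for hepatocytes and cultures (left) and livers (right). Hepatocytes stand near 9.78%, no IL6-iHPC sample lies above 1.04%, the IL6-iMHs lie between 3.37% and 4.66%, and PHX-D3 is split by 1 liver at 8.78%.

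Within 3 days of culture nearly the whole group collapsed. Apoa1 went to 18, 21 and 15 FPKM, Apoa2 to 1.22, 1.54 and 0.970 FPKM and Apoh to 3.15, 3.36 and 3.74 FPKM, all far under every hepatocyte sample. Of the 10 genes 8 were called lower at D3, 1 was called higher and 1 was not called, where of all genes 66.0% were called, 53.9% higher and 12.1% lower, with a median difference of 1.14 over all genes. Apoa2 had the largest fall (-12.14 ± 0.15 SE, limma adjusted p = 2.46e-32), followed by Apoc1 (-9.70 ± 0.12), Apoa1 (-9.68 ± 0.16), Apoc3 (-9.48 ± 0.08), Apoa5 (-9.40 ± 0.10) and Apoh (-8.83 ± 0.07). Apoe fell by less (-5.02 ± 0.09, limma adjusted p = 9.26e-29). At 656, 662 and 631 FPKM it still ranked 39 among all genes and gave, with Apoa1, 64.3% of what was left of the summed level. Apoa4 fell by 3.64 ± 0.09. Apoc2, the lipase activator, was at 0.411 to 0.521 FPKM against 1.63 to 2.10 in hepatocytes and lay just under the 2-fold limit (-0.98 ± 0.13, not called). It was called lower with a pseudocount of 0.1 (-1.82), quantile normalization (-2.28), median scaling (-2.44) or voom (-1.98). The same held without Hepatocytes replicate 2 (-1.05) or D3 replicate 2 (-1.01).

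Apob was the exception. It measured 330, 347 and 390 FPKM at D3 against 29.1, 54.2 and 37.8 in hepatocytes, with no overlap, a difference of 3.15 ± 0.27 (limma adjusted p = 6.09e-12). Its rank rose from 1475 to 92. In Normal liver, a separately normalized set, Apob was at 269 to 363 FPKM, overlapping the D3 samples, and ranked 245. The rise is thus from hepatocytes in which Apob was low, and why it was low there was not tested. This gene has by far the longest gene model of the group, 13443 bases against 493 to 2150 for the others, and long gene models as a class were higher in the cultures: the 416 tested models of 8 kb or more had a median difference of 2.49 at D3, and 87.7% of them were called higher, while the 879 models under 1 kb had a median of -0.45. After centring on genes of like length the Apob difference at D3 was 0.33 (limma adjusted p = 0.182) and no longer called, and the part of gene length in it was not tested further.

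By day 14 part of the group had come back, unevenly. From D3 to D14, 6 of the 10 genes rose and 0 fell, where 10.2% of all genes were called, 5.12% higher and 5.05% lower. Apoh rose the most, from 3.15, 3.36 and 3.74 FPKM to 147, 166 and 136 FPKM (5.09 ± 0.07, limma adjusted p = 1.13e-29), and Apoa1 went to 326, 345 and 257 FPKM (4.02 ± 0.16). Apoc1 (3.51 ± 0.12), Apoc2 (2.39 ± 0.13), Apoe (1.87 ± 0.09) and Apoa2 (1.84 ± 0.15) rose as well, and the D3 and D14 samples of these genes did not overlap. Apoc3 and Apoa5, both neighbours of Apoa1 in the same cluster, stayed low. Apoc3 was at 2.77 to 3.48 FPKM at D3 and 2.63 to 3.17 at D14 (-0.07 ± 0.08, limma adjusted p = 0.446). Apoa5 went from 0.400, 0.364 and 0.490 FPKM at D3 to 0.157, 0.166 and 0.101 at D14, without overlap (-0.31 ± 0.10, limma adjusted p = 0.00498). It was called lower there with a pseudocount of 0.1 (-1.11) or with limma voom on reads (-1.56), and Apoa4 (0.65 ± 0.09) was then called higher (1.01 and 1.08). Against hepatocytes all 10 genes were called at D14, 2 higher (Apob 3.38 ± 0.27, Apoc2 1.41 ± 0.13) and 8 lower, with 62.9% of all genes called, 50% higher and 12.9% lower. The Apoc2 call was lost when values were rescaled (0.0050 after quantile normalization, 0.10 after median scaling), and that of Apob after centring by length (0.81).

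**Figure D2:**
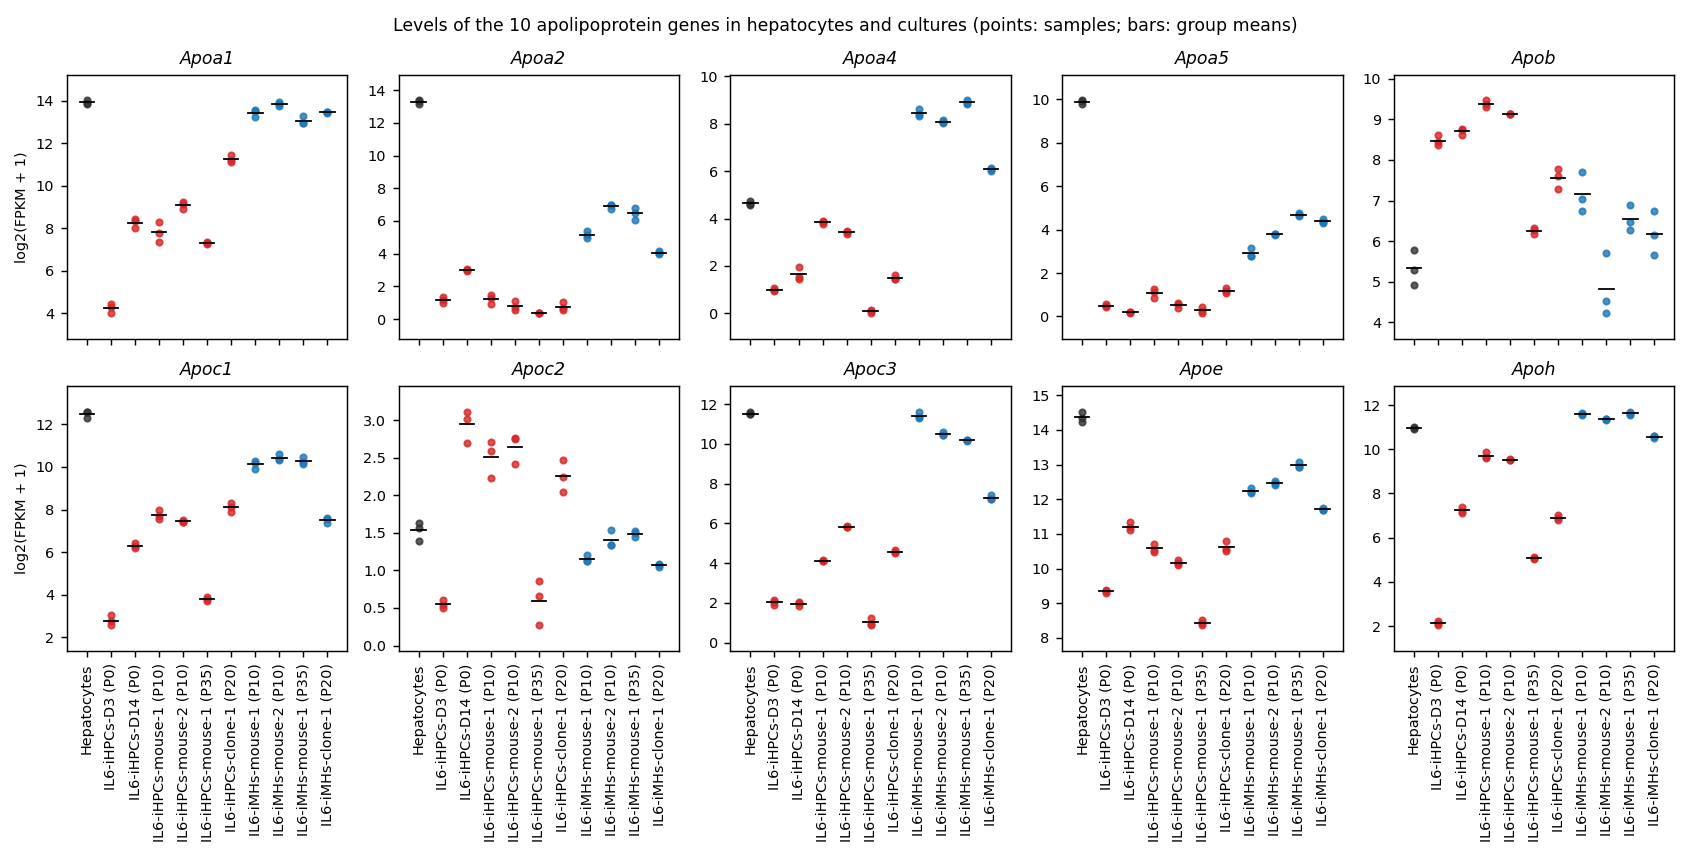
Level of each of the 10 genes as log2(FPKM + 1) (vertical axis, its own range in each panel) in the 3 samples (points) and mean (bars) of hepatocytes (black), IL6-iHPCs (red) and IL6-iMHs (blue). Apoa1 returned to 7893 to 15532 FPKM in the IL6-iMHs while Apoa2 stopped at 14.7 to 126 FPKM, Apoa4 went above hepatocytes in all 4 IL6-iMHs, and Apob stood above hepatocytes in all IL6-iHPCs.

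The passaged IL6-iHPCs kept 7 of the genes down in each of the 4 lines. Apoa1, Apoa2, Apoa5, Apoc1, Apoc3, Apoe and Apoh were lower than in hepatocytes in all 4 lines, and the same 7 in the 3 lines without clone-1. Of all genes 7.99% were called lower in all 4 lines and 31.4% higher (8.82% and 33.1% without clone-1). The number called was 8 (1 higher, 7 lower) in mouse-1 (P10), 10 (2 higher, 8 lower) in mouse-2 (P10), 8 (0 higher, 8 lower) in mouse-1 (P35) and 9 (1 higher, 8 lower) in clone-1 (P20). Of all genes 52.6%, 55.9%, 66.0% and 61.9% were called in the same order, 40%, 42.8%, 54.3% and 51.5% higher and 12.6%, 13.1%, 11.7% and 10.4% lower, and the median over all genes was 0.66, 0.76, 1.16 and 1.05.

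Apoa2 was nearly silent in all 4 lines. It measured 0.908, 1.42 and 1.74 FPKM in mouse-1 (P10), 0.492, 0.691 and 1.13 in mouse-2 (P10), 0.314, 0.272 and 0.283 in mouse-1 (P35) and 1.06, 0.444 and 0.600 in clone-1 (P20), from 10 to 55 reads a sample. All of these lie far under the hepatocyte samples and overlap among the lines except for mouse-1 (P35), which was the lowest. The differences ran from -12.08 ± 0.15 in mouse-1 (P10) to -12.93 ± 0.15 in mouse-1 (P35). Apoa5 behaved alike, at 0.119 to 1.48 FPKM in the 4 lines against 894 to 1001 in hepatocytes (-8.72 to -9.62).

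Apoa1, the partner of Apoa2 in HDL, kept a detectable level that differed widely by line. It stood at 161, 313 and 222 FPKM in mouse-1 (P10), 484, 600 and 557 in mouse-2 (P10), 162, 154 and 158 in mouse-1 (P35) and 2187, 2379 and 2787 in clone-1 (P20). The clone-1 samples were the highest and did not overlap any other line. The ratio of Apoa1 to Apoa2, both per length, was 1.49 to 1.59 in hepatocytes and 127 to 5361 over the samples of the 4 lines, and in the livers it lay between 1.12 and 2.11 apart from PHX-D3 (1.79 to 5.78).

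Apoe and Apoh kept high levels in the early passages. Apoe was at 1435 to 1673 FPKM in mouse-1 (P10), 1095 to 1206 in mouse-2 (P10) and 1457 to 1783 in clone-1 (P20), with ranks of 27, 30 and 24, but at 331 to 365 in mouse-1 (P35). Apoh was at 789 to 931 FPKM in mouse-1 (P10) and 727 to 751 in mouse-2 (P10), under the 1941 to 2066 of hepatocytes (-1.26 ± 0.07 and -1.44 ± 0.07), and at 111 to 129 in clone-1 (P20) and 31.3 to 33.6 in mouse-1 (P35). Apoa4, at a lower level, differed from hepatocytes by -0.80 ± 0.09 in mouse-1 (P10), not called, and -1.21 ± 0.09 in mouse-2 (P10). The Apoh call at P10 was lost after quantile normalization, where the differences were 0.03 in mouse-1 and -0.17 in mouse-2. Apoc2 was called higher in mouse-2 (P10) (1.11 ± 0.13), where the sign turned under quantile normalization (-0.14) and median scaling (-0.0078). In mouse-1 (P10) its 0.98 ± 0.13 lay just under the 2-fold limit, and it was called with a pseudocount of 0.1 (1.27), with voom (1.32), after length centring (1.94) and without Hepatocytes replicate 1 (1.03) or its own replicate 1 (1.12). In mouse-1 (P35) Apoc2 went the other way, at 0.210 to 0.811 FPKM against 1.63 to 2.10 in hepatocytes (-0.93, not called). It was called lower there with a pseudocount of 0.1 (-1.78), quantile normalization (-2.0), median scaling (-2.37) or voom (-1.94). The same held without the P35 replicate 1 (-1.06) or without Hepatocytes replicate 2.

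Long passage took the group further down. Between P10 and P35 of the mouse-1 IL6-iHPCs, 7 of the 10 genes fell and 0 rose, where 33.7% of all genes were called, 24.8% higher and 8.94% lower. Apoh fell by 4.64 ± 0.07 (limma adjusted p = 2.77e-29), from 931, 796 and 789 to 33.6, 31.3 and 32.9 FPKM. Apoc1 fell by 3.95 ± 0.12 and Apoa4 by 3.75 ± 0.09, the latter from 12.8 to 13.7 FPKM to 9, 11 and 0 reads a sample. Apob fell by 3.12 ± 0.27, Apoc3 by 3.09 ± 0.08, Apoe by 2.14 ± 0.09 and Apoc2 by 1.91 ± 0.13. The sample ranges of all 7 were apart. Apoa1 (-0.50 ± 0.16), Apoa2 (-0.85 ± 0.15) and Apoa5 (-0.81 ± 0.10), already low at P10, were not called. Apoa2 and Apoa5 were called lower with a pseudocount of 0.1 (-1.86 and -2.0), after median scaling (-1.25 and -1.21), with voom (-2.14 and -2.47) and after length centring (-1.78 and -1.32), and Apoa1 after quantile normalization (-1.0) and length centring (-1.42). These are single lines of the same mouse, so passage and other differences between the 2 cultures cannot be told apart.

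Maturation brought 7 genes up in each of the 4 lines, Apoa1, Apoa2, Apoa4, Apoa5, Apoc3, Apoe and Apoh, and in the 3 lines without clone-1 also Apoc1, 8 in all. Of all genes 1.95% were called higher in all 4 lines and 3.33% lower (3.73% and 8.94% without clone-1). Against their own IL6-iHPCs, 10 genes were called in mouse-1 (P10) (8 higher, 2 lower), 10 in mouse-2 (P10) (8 higher, 2 lower), 8 in mouse-1 (P35) (8 higher) and 9 in clone-1 (P20) (7 higher, 2 lower). The 2 lower ones were Apob and Apoc2 in each case. Among the higher ones, the Apoh call in mouse-2 (P10) was lost after quantile normalization (0.86). Of all genes 25.0%, 39.9%, 45.3% and 23.6% were called, 9.59%, 11.2%, 10.2% and 5.86% higher and 15.4%, 28.6%, 35.1% and 17.7% lower.

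Apoa1 went to 11674, 9709 and 12030 FPKM in IL6-iMHs-mouse-1 (P10), 14728, 15532 and 13988 in mouse-2 (P10), 7893, 9900 and 8015 in mouse-1 (P35) and 11035, 11332 and 11404 in clone-1 (P20). It ranked 2 or 3 among all genes in each, as in hepatocytes. The samples of mouse-2 (P10) overlapped those of hepatocytes, and the others lay below them. Against hepatocytes the differences were -0.49 ± 0.16, -0.08 ± 0.16, -0.86 ± 0.16 and -0.47 ± 0.16, none of them 2-fold. With the medians of all samples set equal they were -1.20, -1.59 and -1.37 in mouse-1 (P10), mouse-1 (P35) and clone-1 (P20), and were then called lower.

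Apoa2 did not follow. It rose by 3.94 ± 0.15, 6.08 ± 0.15, 6.10 ± 0.15 and 3.32 ± 0.15 in mouse-1 (P10), mouse-2 (P10), mouse-1 (P35) and clone-1 (P20), but only to 33.7, 30.4 and 41.4 FPKM, 123, 126 and 106 FPKM, 67.1, 110 and 89.7 FPKM, and 15.7, 14.7 and 17.1 FPKM. Every IL6-iMH sample stayed far under the lowest hepatocyte sample (9262 FPKM). The remaining differences were -8.14 ± 0.15 (limma adjusted p = 7.74e-28), -6.41 ± 0.15, -6.84 ± 0.15 and -9.23 ± 0.15. The ratio of Apoa1 to Apoa2 was 89.3 to 773 over the IL6-iMH samples. Apoa5 shared this pattern, with 5.86 to 26.6 FPKM in the IL6-iMHs and differences of -5.20 to -7.00 from hepatocytes.

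Apoa4 overshot. It measured 316, 340 and 396 FPKM in IL6-iMHs-mouse-1 (P10), 258, 267 and 286 in mouse-2 (P10), 508, 468 and 457 in mouse-1 (P35) and 63.7, 66.3 and 69.1 in clone-1 (P20), all above the 23.0 to 25.4 of hepatocytes. The differences from hepatocytes were 3.82 ± 0.09, 3.45 ± 0.09, 4.26 ± 0.09 and 1.44 ± 0.09, and the highest adjusted p of the 4 was 6.13e-15 (limma). In clone-1 the value was 0.53 after median scaling and not called. Of the 10 genes Apoa4 alone was called above hepatocytes in all 4 lines, with or without clone-1, as were 12.3% of all genes (13.4% without clone-1).

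Apoc1, Apoc3 and Apoe returned in part. Apoe was at 3280 to 3460 FPKM in clone-1 (P20) and at 7722 to 8629 in mouse-1 (P35), with the P10 lines between, against 19284 to 23564 in hepatocytes (-1.39 to -2.66, called in all 4). In mouse-1 (P35) the Apoe difference was -0.54 after quantile normalization and no longer called. Apoc1 differed from hepatocytes by -2.06 to -4.98, lowest in clone-1 (P20) at 166 to 193 FPKM. Apoc3 came back fully in mouse-1 (P10), with 2555, 2618 and 3051 FPKM against 3137, 2844 and 2844 in hepatocytes and overlapping samples (-0.10 ± 0.08, limma adjusted p = 0.254). It was lower in mouse-1 at P35 (-1.35 ± 0.08) and in clone-1 at P20 (-4.23 ± 0.08), and in mouse-2 (P10) its -1.03 ± 0.08 lay at the 2-fold limit and was not called after quantile normalization (-0.84) or without Hepatocytes replicate 1 (-0.98). Apoh was at 2599 to 3330 FPKM in the mouse lines, above the hepatocyte samples without reaching 2-fold (0.39 to 0.65), and at 1463 to 1572 in clone-1 (-0.40 ± 0.07). It was called higher in mouse-1 at both passages after quantile normalization (1.22 and 1.4) and lower in clone-1 after median scaling (-1.30).

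In all, the IL6-iMHs differed from hepatocytes in 6 genes in mouse-1 (P10) (2 higher, 4 lower), 6 in mouse-2 (P10) (1 higher, 5 lower), 7 in mouse-1 (P35) (2 higher, 5 lower) and 6 in clone-1 (P20) (1 higher, 5 lower). Apoa2, Apoa5, Apoc1 and Apoe were the 4 called lower in every line, with or without clone-1, where 5.22% of all genes were called lower in all 4 (5.63% without clone-1). Of all genes 32.6%, 25.2%, 35.2% and 45.3% were called in the same order, 25.4%, 17.6%, 27.1% and 35% higher and 7.25%, 7.63%, 8.02% and 10.4% lower.

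**Figure D3:**
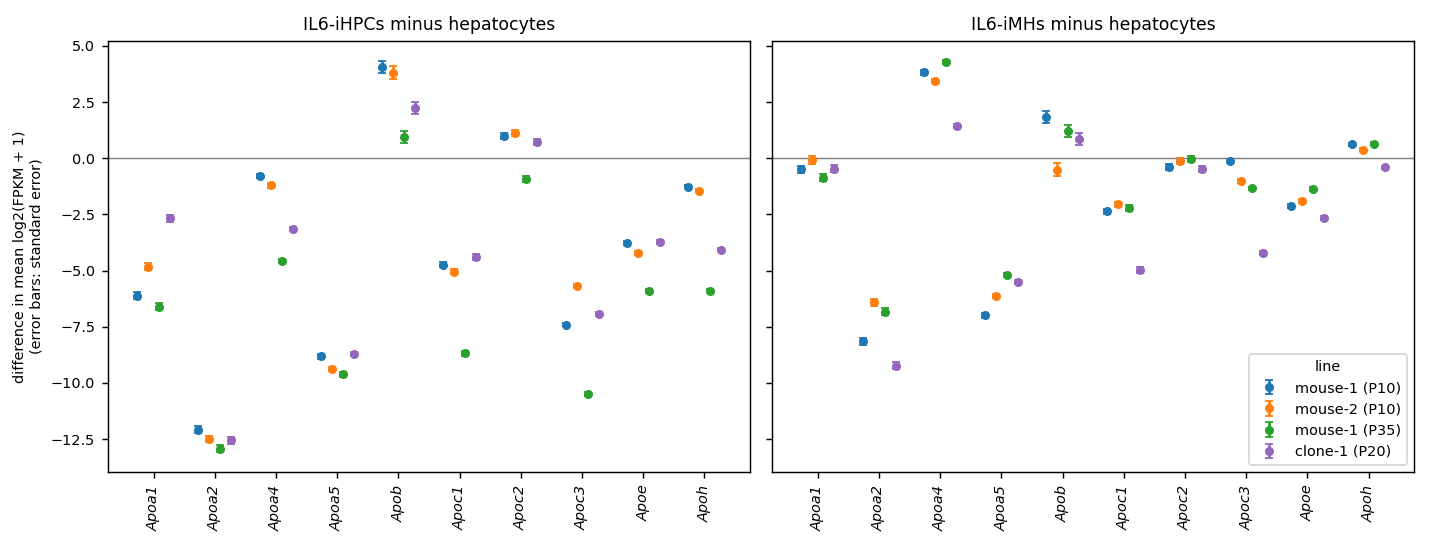
Difference from hepatocytes in mean log2(FPKM + 1) (vertical axis, with standard errors) for each of the 10 genes in the 4 lines (colours), for IL6-iHPCs (left) and IL6-iMHs (right). Apoa1 moved from -2.67 to -6.61 on the left to -0.08 to -0.86 on the right, whereas Apoa2 and Apoa5 stayed between -5.20 and -9.23 on the right and Apoa4 rose to 1.44 to 4.26.

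The lines also differed in how far maturation moved each gene. The change on maturation in mouse-1 (P35) differed from that in mouse-1 (P10) for 9 of the 10 genes, where the same test called 33.7% of all genes, 9.65% higher and 24.1% lower. All 9 values were positive, from 1.85 ± 0.12 for Apoc3 to 4.68 ± 0.10 for Apoh. Apoa1 was the gene not called (0.12 ± 0.22). The change in clone-1 (P20) differed for 5 genes (30.8% of all genes, 10.5% higher and 20.3% lower), with lower values for Apoc3 (-4.58 ± 0.12), Apoa1 (-3.42 ± 0.22) and Apoc1 (-2.95 ± 0.17) and higher ones for Apoh (1.79 ± 0.10) and Apoa5 (1.38 ± 0.14), with the reservation on the origin of the clone-1 pair. That in mouse-2 (P10) differed for 4 (14.7% of all genes, 3.49% higher and 11.3% lower), Apoc3 (-2.64 ± 0.12), Apoa2 (2.14 ± 0.22), Apob (-2.09 ± 0.39) and Apoa5 (1.43 ± 0.14). At the end point the 2 passages of mouse-1 were closer: IL6-iMHs at P35 and P10 differed in 3 genes (6.21% of all genes, 3.57% higher and 2.64% lower), Apoa5 (1.79 ± 0.10), Apoa2 (1.3 ± 0.15) and Apoc3 (-1.24 ± 0.08).

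Apob was above hepatocytes in the IL6-iHPCs and fell on maturation in 3 of the 4 lines. It was at 661, 627 and 710 FPKM in IL6-iHPCs-mouse-1 (P10), 564, 561 and 562 in mouse-2 (P10), 79.0, 71.8 and 75.7 in mouse-1 (P35) and 219, 193 and 154 in clone-1 (P20), above the hepatocyte samples in every line (4.05 ± 0.27, 3.81 ± 0.27, 0.93 ± 0.27 and 2.23 ± 0.27, the P35 value not called). In the IL6-iMHs it was at 130, 207 and 105, 17.6, 22.1 and 51.1, 117, 87.4 and 76.7, and 70.6, 106 and 49.3 FPKM, and it had fallen in 3 of the 4 lines (-2.23 ± 0.27, -4.32 ± 0.27 and -1.37 ± 0.27 in mouse-1 (P10), mouse-2 (P10) and clone-1). Apoc2 was called lower on maturation in the same 3 lines (-1.36 ± 0.13, -1.24 ± 0.13 and -1.19 ± 0.13) and stood at 0.89 ± 0.13 in mouse-1 (P35), not called. The Apoc2 call in mouse-2 (P10) was lost after quantile normalization (-0.41) and median scaling (-0.55). That in clone-1 was lost after both (-0.77 and -0.72) and after length centring (-0.72). In mouse-1 (P35) Apoc2 was called higher with a pseudocount of 0.1 (1.72), quantile normalization (1.18), median scaling (1.60) or voom (1.89). The Apob samples of the IL6-iMHs overlapped those of hepatocytes in mouse-2 (P10) and clone-1. Long gene models of 8 kb or more moved in the same direction, with medians of 2.10, 2.20, 1.94 and 1.71 in the IL6-iHPCs and 0.91, 0.24, 0.83 and 1.02 in the IL6-iMHs against hepatocytes, in the order of lines above. Centred on genes of like length, Apob was 1.76 and 1.4 above hepatocytes in the IL6-iHPCs at P10, still called. It was 0.39 in clone-1, not called, and -1.16 at P35 of mouse-1, called lower. In the IL6-iMHs it was between -0.91 and 0.73 and not called in any line. On maturation the centred value was 1.34 in mouse-1 (P35), called higher. In clone-1 the fall on maturation was no longer called after length centring (-0.80) or median scaling (-0.90). Without centring, Apob in the IL6-iMHs was called above hepatocytes in mouse-1 at P10 (1.83) and P35 (1.22). The P35 call was lost after quantile normalization (0.96) or median scaling (0.49). In IL6-iHPCs-clone-1 (P20) the call against hepatocytes was lost after median scaling (0.86).

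**Figure D4:**
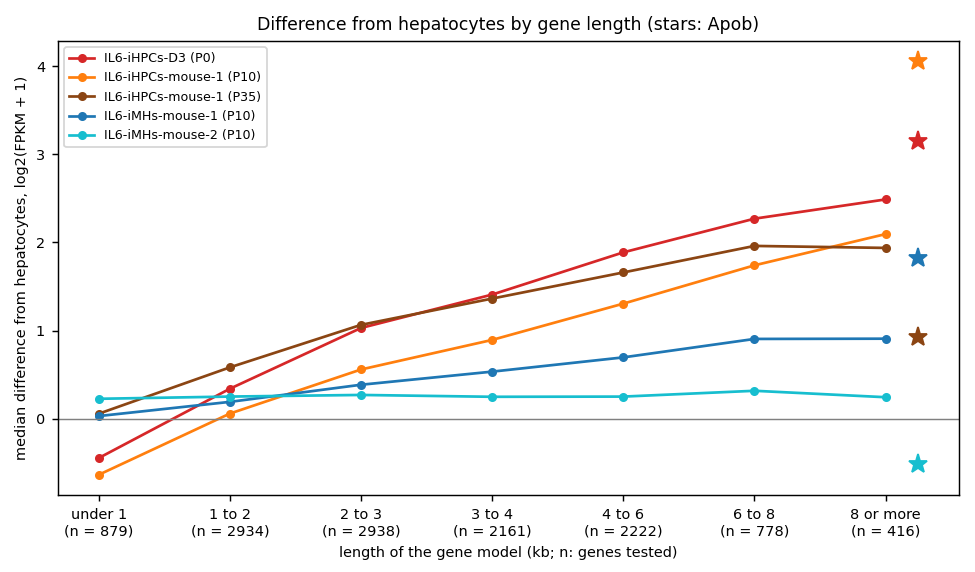
Median difference from hepatocytes in log2(FPKM + 1) (vertical axis) over genes grouped by length of the gene model in kb (horizontal axis, number of genes tested below), for 5 cultures (lines), with the value of Apob in the same culture as a star. The medians rise with length from -0.45 to 2.49 at D3 and lie between 0.23 and 0.32 in every class in IL6-iMHs-mouse-2 (P10), and Apob stands above the longest class at P10 of mouse-1 and below it at P35.

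Ordered by group mean over the 11 groups, hepatocytes were the top group for Apoa1, Apoa2, Apoa5, Apoc1, Apoc3 and Apoe. The span from the highest to the lowest group mean was 34891-fold for Apoa2, 7899-fold for Apoa4, 6777-fold for Apoa5 and 2799-fold for Apoc3, against 61.1-fold for Apoe, 22.0-fold for Apob and 14.6-fold for Apoc2. Of the 10 pairs of neighbouring groups in each order, 9 were apart in their samples for Apoa4, Apoe and Apoh, and 3 for Apob. For Apoa1, hepatocytes and IL6-iMHs-mouse-2 (P10) overlapped, as did IL6-iMHs-clone-1 (P20), mouse-1 (P10) and mouse-1 (P35) along the order. For Apoa2, IL6-iMHs-mouse-2 (P10) and mouse-1 (P35) overlapped, and so did all IL6-iHPCs from mouse-1 (P10) to clone-1 (P20) along the order, with D3 among them.

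Likeness of pattern was measured by Pearson's r across the 11 group means of log2(FPKM + 1), over the 12328 genes tested. The closest to Apoa2 were Serpinc1 (antithrombin, r = 0.991) and Fxyd1 (0.985), to Apoa5 Ugt2b36 (0.980) and the asialoglycoprotein receptor subunit Asgr1 (0.969), to Apoa1 Ttc36 (0.967) and the retinol carrier Rbp4 (0.966), and to Apoh Mst1 (0.967) and albumin, Alb (0.964). Apoc3 was closest to Gm5617 (0.980) and Fah (0.979), Apoc1 to Gstz1 (0.971) and Msra (0.965), Apoe to Asgr2 (0.940) and Bcat2 (0.939) and Apoa4 to Copz2 (0.983) and Sult1d1 (0.976). Apob had Wwp1 (0.976) and Ppp2r3a (0.970), and Apoc2 had no close pattern (Sema4a and Tha1, both 0.799). Among the 10 themselves Apoa2 and Apoa5, on different chromosomes, were most alike (r = 0.950), Apoa1 and Apoa2 reached 0.711, and Apob was negative with Apoa1 (-0.695). The 11 points share the same hepatocytes and come from few mice, so these values are a description.

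Other lipoprotein genes moved in both directions. Their counts over lines are read against the 31.4% of all genes called higher and 7.99% called lower in all 4 IL6-iHPC lines, and the 1.95% called higher in all 4 on maturation. These counts include clone-1, so those on maturation carry the reservation on the origin of its pair. Of 11 other apolipoproteins tested, 7 were lower than in hepatocytes in all 4 IL6-iHPC lines and 0 higher. Apom, which carries sphingosine-1-phosphate on HDL, was at 482 FPKM by group mean in hepatocytes, 0.264 to 11.8 in the passaged IL6-iHPCs and 1.74 to 13.2 in the IL6-iMHs. Apof rose with maturation in all 4 lines (3.13 to 3.75) and remained below hepatocytes (-1.47 to -3.79). Of 11 genes of HDL formation and remodelling 7 were lower in all 4 IL6-iHPC lines, led by the HDL enzyme Pon1 (-8.82 to -8.91) and hepatic lipase, Lipc (-6.65 to -6.91), and 2 (Lipc and Lcat, which esterifies the cholesterol of HDL) rose in all 4 on maturation. Pon1 was still 6.78 to 8.84 below hepatocytes in the IL6-iMHs. Of 11 genes of lipoprotein assembly and editing, Mttp, which loads lipid onto Apob, was lower in all 4 IL6-iHPC lines (-1.61 to -3.95) with Pla2g12b, and the export factor Mia2 was higher (1.45 to 2.98). Of 9 uptake receptors and their partners 4 were higher in all 4 IL6-iHPC lines, the largest Vldlr (3.55 to 4.57). Of 8 genes of lipase control, Pcsk6 was higher and Gpihbp1 lower in all 4 lines.

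Among 23 regulators of apolipoprotein genes, 2 were higher and 4 lower in all 4 IL6-iHPC lines. Hnf4a, the nuclear receptor that drives many of these genes, was at 140 FPKM by group mean in hepatocytes and 145 to 276 in the passaged cells and was called in no line (0.04 to 0.88 in IL6-iHPCs, 0.34 to 0.97 in IL6-iMHs). Cebpa fell in all 4 lines (-2.57 to -4.56) and stayed lower in the IL6-iMHs (-1.74 to -2.50), Nr0b2 fell with it (-5.14 to -6.23), and Foxa3 fell (-1.92 to -2.44) and rose again on maturation in all 4 (1.38 to 2.10). Srebf2 (1.99 to 3.19) and Prox1 (1.80 to 3.40) were the 2 higher ones. Of 6 genes next to the Apoa1 cluster 5 were higher and 0 lower in all 4 IL6-iHPC lines, such as Pafah1b2 (2.05 to 3.09) and Sik3 (1.80 to 2.12), and of 7 next to the Apoe cluster 3 were higher and 0 lower, such as Bcam (2.68 to 4.30). Of all genes 31.4% were higher in all 4 of these lines, so that the 3 of 7 lie near the background. Long gene models were higher in these lines as a class, and none of these lists was set against genes of like length.

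In livers after PHX most of the same genes stayed under 2-fold, and those called differed by time. No more than 3 of the 10 were called at any time. The count was 1 at 6 h (1 higher), 2 at 24 h (1 higher, 1 lower), 3 at day 3 (1 higher, 2 lower), 1 at day 7 (1 lower) and 1 at day 14 (1 lower). Of all genes 16.3% (4.78% higher, 11.5% lower), 7.90% (3.74%, 4.16%), 5.82% (3.33%, 2.49%), 8.84% (7.81%, 1.03%) and 2.98% (0.981%, 2.00%) were called at these times. At an unadjusted limma p under 0.05, with no limit on fold, the counts were 5, 9, 6, 5 and 2 of the 10 in the same order. Bulk liver holds several cell types, and fewer cells of a type cannot be told apart from less RNA per cell.

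Apoa4 had the largest rise. It was at 92.5, 57.2 and 131 FPKM in Normal liver, 368, 1217 and 703 at 6 h, 1185, 1447 and 2256 at 24 h, 242, 18018 and 301 at day 3, 42.7, 45.6 and 50.6 at day 7 and 66.3, 164 and 81.4 at day 14. All livers at 6 h, 24 h and day 3 lay above all Normal livers, those of day 7 lay below them, and those of day 14 overlapped them. The differences were 2.93 ± 1.11 at 6 h (limma adjusted p = 0.0367), 4.13 ± 1.11 at 24 h (0.0104) and 3.61 ± 1.11 at day 3 (0.0242), where PHX-D3 replicate 2 alone set most of the spread. Without that liver they were 2.93 (limma adjusted p = 2.19e-05), 4.13 (3.21e-06) and 1.59 (0.0187), the rise from 6 h to 24 h (1.21) and the fall from 24 h to day 3 (-2.54) were called as well, and day 7 stood at -0.93 and day 14 at 0.12, not called either way. With it in, the 6 h call was lost without any 1 of the 3 Normal livers or without PHX-6h replicate 2 or 3 (limma adjusted p = 0.0538 to 0.114), and the day 3 call without Normal liver replicate 1 or 2 (0.0520 and 0.0823).

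PHX-D3 replicate 2 differed in other markers too. It had the highest sums of the day 3 livers for 8 biliary and progenitor markers (171 FPKM against 51.1 and 32.1), 15 macrophage markers (870 against 402 and 273), 8 stellate and fibroblast markers (229 against 77.2 and 91.1) and 5 red blood cell markers (306 against 98.7 and 39.7). Since Apoa4 is also an intestinal gene, 5 enterocyte markers were read, of which 4 are in the table: Fabp2 was at 41.2 to 146 FPKM in the day 3 livers and at 174 to 197 at 24 h against 68.1 to 86.4 in Normal liver, while the defining markers Vil1, Lct and Cdx2 were at or near 0 throughout (at most 0.128 FPKM). The part of these cell types in the result was not tested. The 10 genes made up 8.78% of the summed FPKM in that liver and 4.80% and 5.26% in the other day 3 livers.

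Apoe was lowest at 24 h. It measured 17254, 18115 and 21068 FPKM in Normal liver, 13518, 12354 and 11087 at 6 h, 8323, 6538 and 7379 at 24 h, 10517, 10055 and 10101 at day 3, 12583, 13797 and 14191 at day 7 and 21269, 21675 and 21642 at day 14. The livers of 6 h to day 7 lay below all Normal livers and those of day 14 above them. Only the 24 h difference passed 2-fold (-1.35 ± 0.18, limma adjusted p = 0.000134), and its call was lost with no filter on low values (limma adjusted p = 0.0630). Apoe is also made by macrophages, whose 15 markers summed to 273 to 306 FPKM at 24 h, 320 to 497 in Normal liver and 1779 to 2590 at day 7, when Apoe was at -0.47 ± 0.18 (limma adjusted p = 0.0669). The part of macrophages in the Apoe level was not tested. The number of genes called at 24 h was 5 without Normal liver replicate 1 and 4 without PHX-24h replicate 1, as Apoa2, Apob, Apoc1 and Apoa5 lay near the 2-fold limit.

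Apoa2 was lowest at day 3. It was at 6267, 7958 and 7160 FPKM in Normal liver, 5041, 4484 and 4454 at 6 h, 4073, 3642 and 3395 at 24 h and 2894, 1804 and 2594 at day 3, each time below the time before without overlap, and back at 5848 to 6843 at day 7 and 6198 to 7446 at day 14, overlapping Normal liver. The difference was -0.61 ± 0.19 at 6 h, -0.94 ± 0.19 at 24 h and -1.57 ± 0.19 at day 3 (limma adjusted p = 0.00011), and -1.37 at day 3 without replicate 2. Its lowest liver value was 1804 FPKM. Apoc1, the other gene called lower at day 3 (-1.24 ± 0.31, limma adjusted p = 0.00874), was at 2247, 816 and 2442 FPKM against 3313, 4075 and 4391 in Normal liver, and its call was lost without PHX-D3 replicate 2 (-0.73), so that 2 genes were then called at day 3 with 4.16% of all genes.

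Apoc2 was the only gene called at days 7 and 14. It fell from 7.05, 8.32 and 7.85 FPKM in Normal liver to 0.953, 1.20 and 1.39 at day 7 (-2.01 ± 0.25, limma adjusted p = 2.49e-05) and 2.28, 1.44 and 1.33 at day 14 (-1.72 ± 0.25, limma adjusted p = 0.000455), with no overlap. It is the gene of the 10 with the lowest level and shares exons with a readthrough gene, so the values of its own transcript are uncertain. Apob was higher at 24 h (598, 570 and 689 FPKM against 363, 332 and 269) and lower at day 14 (233, 187 and 170), without overlap and with differences under 2-fold (0.95 ± 0.15, limma adjusted p = 0.000419, and -0.71 ± 0.15, limma adjusted p = 0.00503). At day 3 Apob was at 547, 515 and 561 FPKM, again above all Normal livers (0.76 ± 0.15, limma adjusted p = 0.00256), and it was called after quantile normalization (1.04). Apoa5 was at 860 to 1051 FPKM at 6 h and 848 to 1398 at 24 h against 519 to 763 in Normal liver, apart but under 2-fold (0.66 ± 0.24 and 0.86 ± 0.24). Apoa1, Apoc3 and Apoh were called at no time, with differences of -0.55 to 0.18, -0.39 to 0.14 and -0.66 to 0.04. At 24 h all 3 lay below all Normal livers, though under 2-fold. Apoa1 was at 6207 to 7405 FPKM against 8937 to 10754 (limma adjusted p = 0.0659). Apoc3 was at 1787 to 1931 against 2169 to 2730 (0.0481), and Apoh at 869 to 989 against 1302 to 1642 (0.00883).

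Between neighbouring times 0 of the 10 were called from 6 h to 24 h (6.72% of all genes) and 0 from 24 h to day 3 (3.72%). At an unadjusted p under 0.05 there were 3 and 2. Limma voom on the recovered reads called 1 from 6 h to 24 h, Apoc2. From 6 h to 24 h Apoe (-0.73) was called lower after quantile normalization (-1.07), median scaling (-1.02) and length centring (-1.04). Apoc2 was also called without PHX-6h replicate 2 or PHX-24h replicate 2 (1.01 in both).

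**Figure D5:**
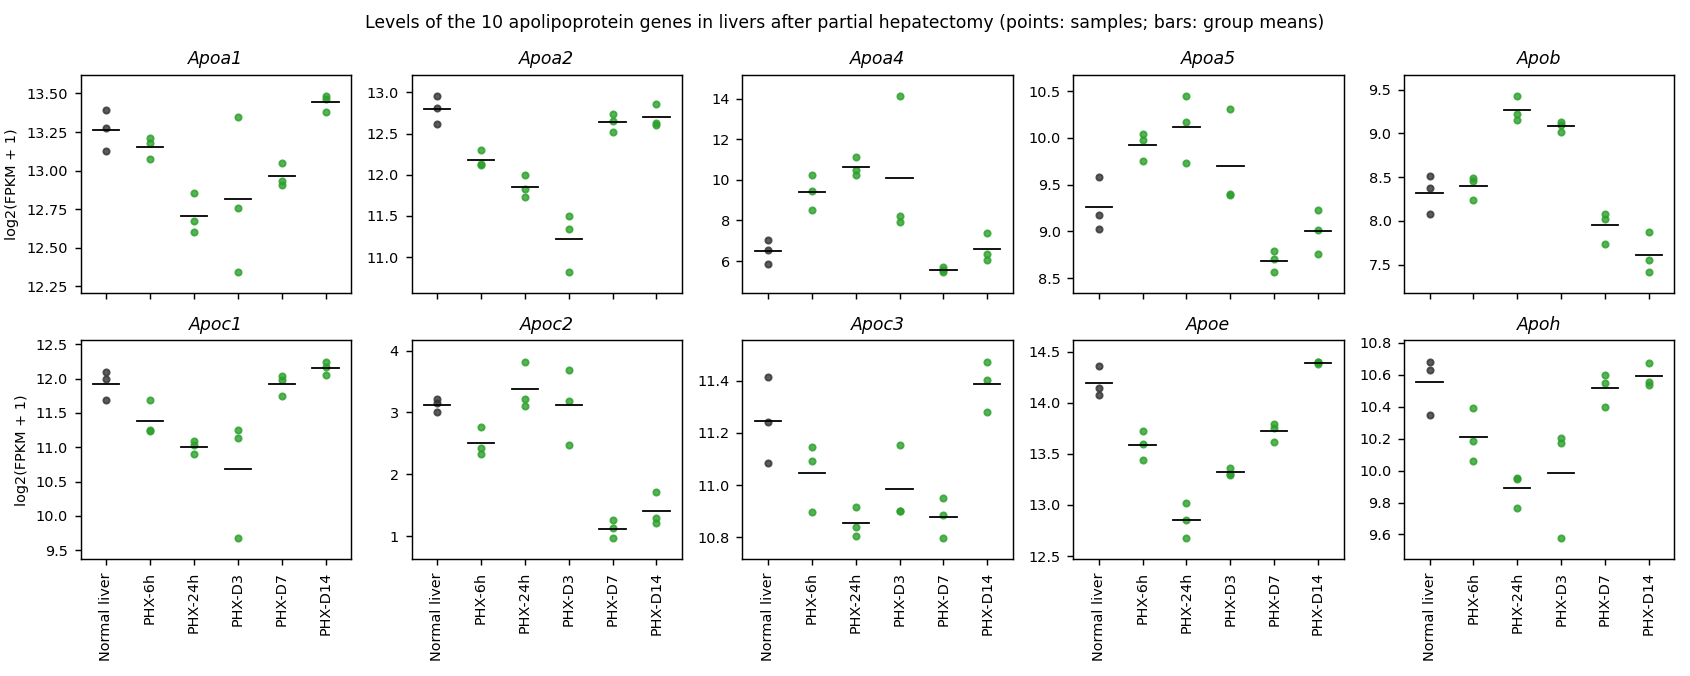
Level of each of the 10 genes as log2(FPKM + 1) (vertical axis, its own range in each panel) in the 3 livers (points) and mean (bars) of Normal liver and of each time after PHX. Apoa2 steps down to day 3 and is back by day 7, Apoe is lowest at 24 h, Apoa4 rises at 6 h and 24 h with 1 far higher liver at day 3, and Apoc2 is low at days 7 and 14.

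At 6 h, when 16.3% of all genes were called (4.78% higher, 11.5% lower), 7 of 22 regulators tested were lower and 1 was higher, the lipogenic factors Srebf1 (-2.66 ± 0.37) and Mlxipl (-2.59 ± 0.54) falling the most and Cebpb rising (1.91 ± 0.31), and at 24 h 3 were lower and 1 higher, Srebf1 at -3.01 ± 0.37. Abca1, the transporter that loads Apoa1 with lipid, rose at 6 h (2.43 ± 0.23), 24 h (1.48 ± 0.23) and day 3 (1.10 ± 0.23), and was the 1 gene of 12 in HDL formation to rise at each. The coat protein Sec24d, which exports cargo from the endoplasmic reticulum, rose at the same times (2.03 ± 0.21, 1.08 ± 0.21 and 1.08 ± 0.21). In lipase control Angptl8 fell at 6 h (-4.73 ± 0.93) and Angptl4 rose (1.49 ± 0.28). Of 8 uptake receptors 4 were lower at 6 h, and Sdc1 was higher (1.66 ± 0.26). Of 11 other apolipoproteins Apol9b (-2.96 ± 1.04) and Apol9a (-2.90 ± 0.89) were lower at 6 h, and 0 were called at 24 h or day 3. Apol9a and Apol9b are close paralogs whose reads may be split. The highest limma adjusted p of these changes was 0.0255 (Apol9b), and the regulators stood at a median of -0.84 at 6 h with all genes at -0.28.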

How the data were processed

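The members and all gene lists were chosen with earlier results of these data known. mRNA sequencing was read from 2 deposited tables, 33 samples of hepatocytes and cultures and 18 livers. The values were taken as FPKM, which the authors made per gene with TopHat 1.4.1 and Cufflinks 1.3.0 on mm10, per the submitters' processing notes. One more table (9 samples of day 7 cultures, 480 complete rows) held 0 of the 10 genes and was not used. The tables were normalized separately and were tested separately.

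Symbols listed more than once (2 in each table) were averaged. 25 and 23 symbols had been turned into dates and could not be matched. Values of all genes with any value were whole multiples of 1 read, within 0.02 reads (18830 and 17331 genes), and the recovered reads gave the depth, with a median of 60.8 M in cultures and 57.5 M in livers. Replicates differed by more than sampling noise (chi-square per gene of 6.18 or more), so none was counted as 1 sample with another.

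Genes that reached 1 FPKM in 3 samples or more entered a fit by limma 3.58.1 (R 4.3.3, variance trend) on log2(FPKM + 1), all groups of a table in 1 fit, and p-values were adjusted after Benjamini and Hochberg across every gene in the fit. Differences between lines in maturation were tested as interaction terms. An exact permutation test of 3 against 3 samples cannot go below p = 0.10 and was not used. The 10 genes were all named, and of each list the genes with the largest rise and fall, apart from some that are not reported here. Alternatives were a pseudocount of 0.1 FPKM, no filter, a filter of 5 FPKM, quantile normalization, median scaling, a replicate block, limma voom on recovered reads, no trend and leaving out each sample. Centring by gene length and leaving PHX-D3 replicate 2 out of every liver fit were added after seeing the data. Scripts were tested on simulated data. Gene positions came from GENCODE and promoters from RefSeq, both on GRCm38. Summaries and figures used Python 3.11.15, numpy 2.4.6, pandas 2.3.3 and matplotlib 3.10.9.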

Additional observations from a re-analysis of the deposited data

Results flagged for a closer look

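The change on maturation differed between lines by an interaction term of the limma fit for 18 pairs of gene and line, each set against mouse-1 (P10). In mouse-2 (P10) the change was higher for Apoa2 (2.14) and Apoa5 (1.43) and lower for Apob (-2.09) and Apoc3 (-2.64). In mouse-1 (P35) it was higher for Apoh (4.68), Apoa4 (4.2), Apoc1 (4.11), Apoe (2.87), Apoa5 (2.60), Apob (2.51), Apoc2 (2.25), Apoa2 (2.15) and Apoc3 (1.85). In clone-1 (P20) it was higher for Apoh (1.79) and Apoa5 (1.38) and lower for Apoc3 (-4.58), Apoa1 (-3.42) and Apoc1 (-2.95). All of these are log2 differences of differences. They share the mouse-1 (P10) samples. The starting levels of mouse-1 differed too: in its IL6-iHPCs 7 of the 10 genes were lower at P35 than at P10 (8.94% of all genes). Its IL6-iMHs at P35 and P10 differed in 3 (6.21% of all genes).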

How the results depend on the processing

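Counts of called genes were recomputed 428 times, and 410 stayed within 1.5 times the reported count. At 6 h after PHX the count was 0 without a filter, 2 after length centring and 0 to 1 when 1 sample was left out. At 24 h it was 1 without a filter and 2 to 5 with 1 sample left out. From 6 h to 24 h it was 1 after quantile normalization, median scaling or length centring (Apoe) or with voom (Apoc2) and 0 to 1 with 1 sample left out, and from 24 h to day 3 it was 0 to 1. The sign turned for Apoh in IL6-iHPCs-mouse-1 (P10) (0.030, quantile normalization), Apoc2 in mouse-2 (P10) (-0.14, quantile normalization, and -0.0078, median scaling) and Apob in mouse-1 (P35) (-1.16, length centring). The cause was not tested. A change of sign was counted only where a value was called, and 75 others were of values called neither way (at most 0.978 in size). As a share of recovered reads rather than of FPKM, the summed level was 5.75% in hepatocytes, 0.563% at D3, 1.21%, 1.05%, 0.165% and 0.724% in the IL6-iHPCs and 2.50%, 2.68%, 2.54% and 1.83% in the IL6-iMHs (mouse-1 (P10), mouse-2 (P10), mouse-1 (P35), clone-1), and 4.85%, 3.90%, 3.47%, 3.76% and 5.15% in Normal liver, PHX-6h, PHX-24h, PHX-D7 and PHX-D14.

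Replicate numbers did not pair the samples (correlations of same-numbered deviations from -0.54 to 0.57 in cultures and -0.30 to 0.39 in livers), and with the replicate block 270 of 270 differences kept direction and call. With 3 samples a group, technical in the cultures, the tests do not reach variation between mice. In livers 1 library (PHX-D3 replicate 2) widened the spread of Apoa4 in every comparison. Apoa2 in the passaged IL6-iHPCs rests on 10 to 55 reads a sample.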
